A study of Mus musculus with 18 samples.

Results

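The 31 genes described here encode enzymes of sterol and fatty acid synthesis together with a sterol carrier and the proteins that control the pathway. They were taken by name out of 36528 genes counted by RNA-seq in primary mouse renal proximal tubulo-interstitial epithelial cells (RPTEC). The list was chosen with earlier results of these data known. All 31 passed the filter on low counts (more than 10 reads in at least 4 samples) and so were among the 15521 genes tested.

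Cells build cholesterol from cytosolic acetyl-CoA through mevalonate, farnesyl diphosphate, squalene and lanosterol, and build fatty acids from the same acetyl-CoA through malonyl-CoA. Most of these genes share a switch. When membranes of the endoplasmic reticulum are low in sterol, SCAP escorts the SREBP transcription factors to the Golgi, where they are cut and released to the nucleus, and INSIG proteins hold SCAP back when sterol is plentiful. Proximal tubule cells are better known for burning fatty acids than for making them, and sterol synthesis in these cells supplies membranes.

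TWEAK is a cytokine of the TNF family, and NIK SMI1 is a small molecule inhibitor of NIK, the kinase that TWEAK signalling uses to start the non-canonical NF-kappaB pathway. C57BL/6 RPTEC were given vehicle (DMSO), TWEAK at 100 ng/mL, or TWEAK at 100 ng/mL with NIK SMI1 at 3 µM, for 6 h or 24 h, with 3 samples in each of the 6 groups. The comparison asks how far TWEAK changes these genes and how their levels differ when NIK SMI1 is added to TWEAK. No group received NIK SMI1 without TWEAK, so an effect of the inhibitor on TWEAK signalling and its effect on resting cells cannot be told apart. The cells are a commercial primary culture, and the labels do not say that replicates were separate cultures, so the p-values measure the spread between these samples, which may be technical.

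Counted reads ran from 18040966 to 51956444 a sample (median 35374254), so that 3 reads equal 0.0577 to 0.166 CPM (counts per 1000000 reads counted in the sample). Of the 12 proximal tubule markers, Slc22a8 had no read in any sample, Slc34a1 and Slc22a6 had at most 1, Hnf4a at most 2 and Aqp1 at most 18, while Slc5a2 had 119 to 402, and the summed level was 18.9 to 23.0 CPM in every group, while 9 markers of renal and simple epithelium summed to 8181 to 10810 CPM. The cultures therefore carried an epithelial profile in which several defining proximal tubule genes were at or near 0. Markers of fat cells and liver cells, which also make lipid, summed to at most 1.12 CPM. The sums were 11.5 to 14.7 CPM for leukocytes, 14.3 to 21.2 for fibroblasts, at most 0.813 for endothelium and at most 0.356 for thick limb, distal tubule and collecting duct.

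Together the 31 genes took 0.412% ± 0.0086 (SD, n = 3) of the counted reads with vehicle at 6 h, 0.353% ± 0.0038 with TWEAK, and 0.405% ± 0.0036 when NIK SMI1 was added to TWEAK. At 24 h the shares were 0.544% ± 0.0068, 0.408% ± 0.0090 and 0.510% ± 0.0031. The TWEAK samples lay below the vehicle samples of their time point without overlap, and the samples with NIK SMI1 lay above the TWEAK samples. Shares are relative to all reads of a library, and a change in the share of cells that express a gene and a change in RNA per cell cannot be told apart in these bulk samples.

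**Figure D1:**
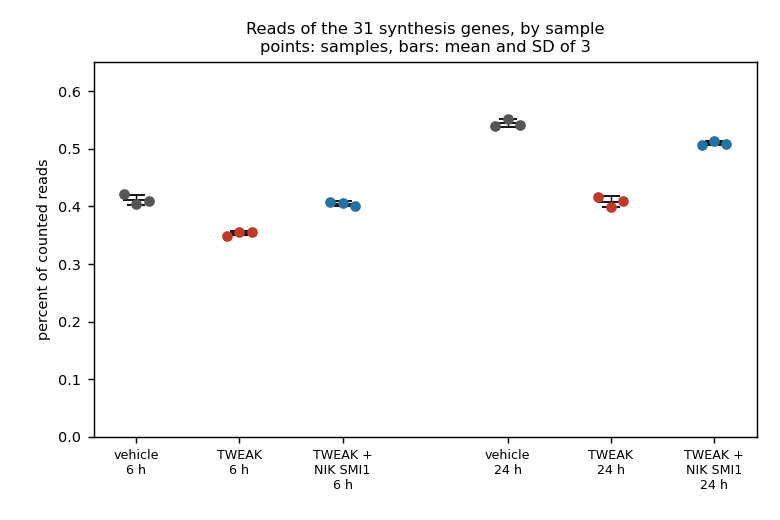
Percent of each sample's counted reads that fell in the 31 synthesis genes (y axis, from 0) by group (x axis); points are samples and bars are the mean and SD of 3. The 3 TWEAK samples at 24 h lie between 0.399 and 0.417, below the vehicle samples at 0.539 to 0.552 and the samples with NIK SMI1 at 0.507 to 0.513.

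With TWEAK at 6 h, 19 of the 31 genes fell and 0 rose by edgeR's quasi-likelihood test at an adjusted p below 0.05, where 12.0% of all tested genes fell and 11.7% rose. Their median log2 fold change was -0.21 against -0.0034 over all genes. In 24 of the 31 all TWEAK samples lay below all vehicle samples, which held for 20.2% of all genes. At 24 h, 30 of the 31 fell and 0 rose (all genes: 20.7% fell and 18.3% rose), with a median of -0.43 against -0.0055, and in 30 the samples did not overlap (25.6% of all genes). By more than 1.5-fold, 12 of the 31 fell at 24 h, against 6.20% of all genes. Insig2 was the gene that passed the test at neither time. At an unadjusted p below 0.05, and with DESeq2, the number that rose was also 0 at both times.

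With NIK SMI1 added to TWEAK, the direction was the opposite. At 6 h, 20 of the 31 genes were higher than with TWEAK alone and 0 were lower (all genes: 5.34% higher and 5.70% lower), their median change was 0.22 on the log2 scale, and in 26 the samples with the inhibitor all lay above those without (14.5% of all genes). At 24 h, 25 were higher and 0 lower (all genes: 10.2% and 8.29%), the median was 0.36, and samples did not overlap in 28 (18.9% of all genes). By more than 1.5-fold, 3 of the 31 were higher at 24 h, against 1.51% of all genes. Acly, Acss2, Ebp, Insig2, Srebf1 and Srebf2 passed at neither time. The number lower was 0 also at an unadjusted p below 0.05 and with DESeq2. These comparisons share the TWEAK samples with those against vehicle, so the opposite signs are not independent of each other.

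The genes also moved between the vehicle samples of the 2 time points. At 24 h, 27 of the 31 were higher than at 6 h and 0 were lower (all genes: 15.5% higher and 14.4% lower), and their median change was 0.35 on the log2 scale. By more than 1.5-fold, 6 were higher, against 4.19% of all genes. Hsd17b7, Insig2, Sc5d and Scap were the genes that did not pass the test. Left-out samples removed Acss2 (0.34 to 0.53, adjusted p up to 0.125; without vehicle replicate 1 or 3 at 6 h or replicate 3 at 24 h) and Idi1 (0.38 to 0.57, adjusted p up to 0.0674; without replicate 2 at 6 h or replicate 3 at 24 h). The number lower was again 0 at an unadjusted p below 0.05 and with DESeq2. The vehicle samples at 24 h serve both this comparison and the one with TWEAK at 24 h.

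**Figure D2:**
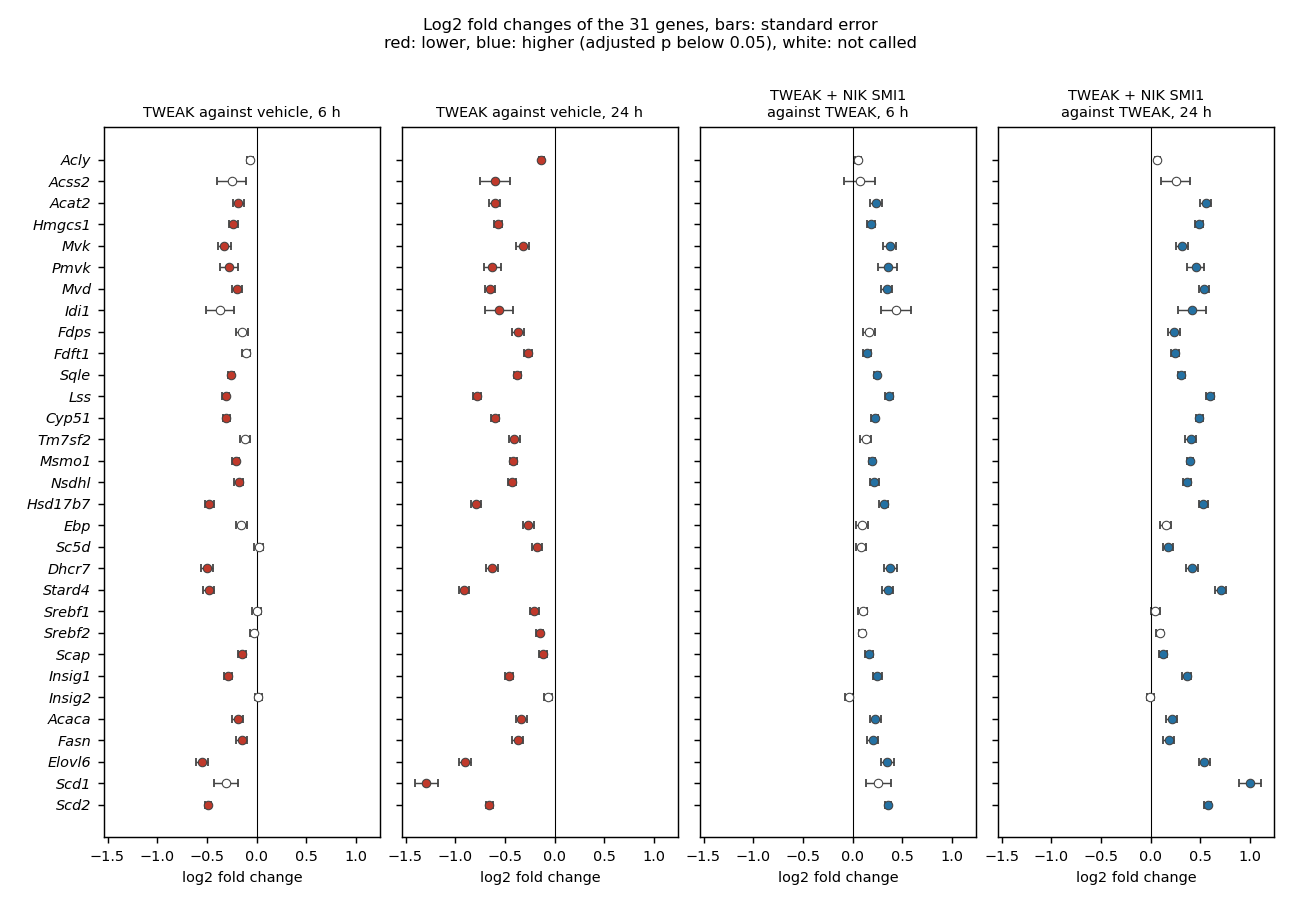
Log2 fold change (x axis) of each of the 31 genes (y axis, ordered by role) in 4 comparisons; bars are standard errors, red and blue points passed the test as lower and higher, and white points did not. With TWEAK 19 genes at 6 h and 30 at 24 h are red, and with NIK SMI1 added 20 and 25 are blue.

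Promoter windows were examined because the genes moved together. RefSeq windows (GRCm38.p6, from 250 bases before to 50 after a transcript start) were found for 25 of the 31 genes, and Fdps, Fdft1, Sqle, Scd1, Scd2 and Stard4 had none. A CCAAT box (CCAAT on either strand) stood in a window of 21 of the 25, or 84%, against 41.1% of 27025 genes. A GC box (GGGCGG on either strand) also stood in 21 of the 25, against 38.2% of genes. By window, the CCAAT box stood in 66.7% of the 33 windows of these genes, against 37.4% of 32851 windows. The GC box stood in 75.8%, against 35.7%. The 27025 genes include genes that were not tested here, whereas all 25 were tested. The sterol response element spelled TCACNCCAC, searched on both strands, matched in Hmgcs1 alone among the 25, or 4%, against 1.44% of genes. A match is a description of letters and no match says only that these letters are not in the window.

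A few windows are printed 5′ to 3′ on the strand of the gene, with CCAAT boxes (which read ATTGG where they lie on the other strand) and the sterol response element in capitals. Elovl6 and Acat2 come from the rule that took the genes with the largest changes. Hmgcs1 was added for its match, Hsd17b7 for its large fall with TWEAK, and Insig1 and Insig2 as a pair in which one fell and the other did not pass the test. These additions were made after their values were seen.
Hmgcs1, chr13:119690101-119690400 (+): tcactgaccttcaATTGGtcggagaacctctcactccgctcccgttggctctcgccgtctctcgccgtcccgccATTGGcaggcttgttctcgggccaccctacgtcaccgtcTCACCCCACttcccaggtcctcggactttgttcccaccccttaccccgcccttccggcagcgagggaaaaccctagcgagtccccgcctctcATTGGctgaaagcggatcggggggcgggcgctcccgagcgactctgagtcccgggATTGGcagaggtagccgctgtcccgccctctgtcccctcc
Acat2, chr17:12960676-12960975 (-): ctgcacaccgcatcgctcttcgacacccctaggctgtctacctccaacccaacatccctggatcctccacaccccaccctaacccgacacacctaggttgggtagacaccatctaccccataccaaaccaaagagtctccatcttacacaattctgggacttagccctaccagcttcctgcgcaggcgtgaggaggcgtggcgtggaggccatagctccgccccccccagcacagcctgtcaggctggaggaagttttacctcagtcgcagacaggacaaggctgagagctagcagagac
Hsd17b7, chr1:169969156-169969455 (-): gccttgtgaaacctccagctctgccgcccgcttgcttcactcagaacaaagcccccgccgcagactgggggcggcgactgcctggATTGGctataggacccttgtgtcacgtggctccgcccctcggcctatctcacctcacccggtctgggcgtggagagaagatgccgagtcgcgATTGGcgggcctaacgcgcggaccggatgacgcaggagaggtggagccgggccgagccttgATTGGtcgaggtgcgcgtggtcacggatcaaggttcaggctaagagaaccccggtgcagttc
Elovl6, chr3:129532136-129532435 (+): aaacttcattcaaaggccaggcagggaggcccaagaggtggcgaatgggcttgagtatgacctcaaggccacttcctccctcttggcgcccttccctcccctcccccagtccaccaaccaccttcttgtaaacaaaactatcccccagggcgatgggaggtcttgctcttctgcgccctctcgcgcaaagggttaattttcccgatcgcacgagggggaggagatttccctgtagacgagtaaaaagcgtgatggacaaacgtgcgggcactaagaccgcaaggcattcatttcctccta
Insig1, chr5:28071162-28071461 (+): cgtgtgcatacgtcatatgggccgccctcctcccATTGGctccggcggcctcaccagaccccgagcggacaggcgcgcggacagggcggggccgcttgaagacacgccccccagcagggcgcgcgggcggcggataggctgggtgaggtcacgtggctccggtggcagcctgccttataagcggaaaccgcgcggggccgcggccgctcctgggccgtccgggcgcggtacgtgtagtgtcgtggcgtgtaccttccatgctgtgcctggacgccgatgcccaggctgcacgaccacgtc
Insig2, chr1:121332540-121332839 (-): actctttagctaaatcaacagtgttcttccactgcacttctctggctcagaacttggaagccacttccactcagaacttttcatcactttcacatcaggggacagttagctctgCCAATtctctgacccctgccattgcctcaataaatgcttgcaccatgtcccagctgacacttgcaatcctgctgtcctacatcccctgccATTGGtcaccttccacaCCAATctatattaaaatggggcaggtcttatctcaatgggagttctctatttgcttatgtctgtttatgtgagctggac
In Hmgcs1 the sterol response element starts at position -137 from the transcript start, and CCAAT boxes lie on both sides of it. Hsd17b7 holds 3 CCAAT boxes and Insig1 holds 1. The Insig2 window shown is the one listed first of the 3 windows found for this gene and holds 3 CCAAT boxes. The other windows of Insig2 hold 0 CCAAT boxes and 1 GC box each. These windows may not cover every annotated start of the gene. The box is thus present in 1 window of the gene that did not pass the test, as well as in its partner that fell. Which Insig2 start these cells use was not tested. Elovl6 and Acat2, which changed strongly, have no capitals at all.

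The first steps make acetyl-CoA in the cytosol, through Acly, which splits citrate, and Acss2, which activates acetate. Per length, Acly was the most highly expressed of the 31 genes with vehicle at 6 h, at 119 RPKM ± 3.66 (SD, n = 3), and Acss2 was among the lowest at 1.10 ± 0.113. Both fell with TWEAK at 24 h. The log2 fold change was -0.13 ± 0.03 (SE, as in the rest of the text) for Acly and -0.60 ± 0.15 for Acss2. At 6 h the values were -0.07 ± 0.03 and -0.25 ± 0.14, and neither passed the test. With NIK SMI1 at 24 h the log2 differences from TWEAK were 0.07 ± 0.03 (95% interval 0.01 to 0.13) and 0.25 ± 0.14 (-0.04 to 0.55).

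The 7 enzymes from acetoacetyl-CoA to farnesyl diphosphate all fell with TWEAK at 24 h, and 5 of them did so at 6 h. Acat2 joins acetyl-CoA units, Hmgcs1 makes HMG-CoA, Mvk and Pmvk phosphorylate mevalonate, Mvd removes its carboxyl group, and Idi1 and Fdps isomerize and join the isoprene units. All 7 were higher at 24 h when NIK SMI1 was added, and 5 of the 7 at 6 h.

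Acat2 (chr17:12943042-12960725, GRCm38.p6) had 24.4, 26.2 and 23.5 CPM in the vehicle samples at 6 h, 21.9, 21.5 and 21.2 with TWEAK and 25.3, 26.4 and 23.9 when NIK SMI1 was added (the inhibitor group). At 24 h it had 48.2, 50.7 and 48.6 CPM with vehicle, 34.5, 32.1 and 31 with TWEAK and 45.2, 47.6 and 50.4 with the inhibitor. Every sample at 24 h was above every sample at 6 h, and at 24 h the TWEAK samples lay below the other groups. The rise in vehicle cells was 0.93 ± 0.06 (adjusted p = 4.1e-13), the largest of the 31 genes. TWEAK lowered it by 0.18 ± 0.06 at 6 h and by 0.60 ± 0.05 at 24 h on the log2 scale, and it was higher with the inhibitor by 0.23 ± 0.06 and 0.55 ± 0.05. The call with TWEAK at 6 h was lost without vehicle replicate 2, TWEAK replicate 2 or TWEAK replicate 3, with values of -0.23 to -0.14, adjusted p up to 0.114 across the fits that left out 1 sample. With NIK SMI1 at 6 h it was lost without replicate 2 of that group (0.20 to 0.26, adjusted p up to 0.0812). Acat2 has a close copy, Acat3, and reads that fit both were not counted, so its level is less certain.

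Hmgcs1 (chr13:119690351-119708260), whose promoter carries the sterol response element shown above, had 285, 274 and 275 CPM with vehicle, 242, 234 and 226 with TWEAK and 268, 252 and 279 with the inhibitor at 6 h. The values at 24 h were 349, 333 and 336 with vehicle, 235, 228 and 226 with TWEAK and 298, 336 and 333 with the inhibitor. TWEAK samples were the lowest at both times and overlapped no other group of their time point. TWEAK gave a log2 fold change of -0.23 ± 0.04 at 6 h and of -0.57 ± 0.04 at 24 h (adjusted p = 1.58e-11).

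Mvk was 22.1, 24.8 and 22.7 CPM with vehicle, 17.1, 19.3 and 18.6 with TWEAK and 21.7, 25.6 and 24.9 with the inhibitor at 6 h, and 34.0, 33.5 and 34.4 with vehicle, 27.7, 28.3 and 25.7 with TWEAK and 33.2, 35.3 and 33.6 with the inhibitor at 24 h. It fell by 0.32 ± 0.06 at 6 h and by 0.32 ± 0.06 at 24 h, and the difference of the 2 log2 fold changes was 0.0009 ± 0.09 with a 95% interval of -0.18 to 0.18. Pmvk was 11.4, 11.2 and 12.6 CPM with vehicle, 10.4, 8.83 and 9.82 with TWEAK and 11.8, 13.1 and 12.2 with the inhibitor at 6 h. At 24 h Pmvk was 15.4, 17.9 and 14.2 with vehicle, 11.8, 10.1 and 9.27 with TWEAK and 14.2, 13.9 and 14 with the inhibitor. Its TWEAK samples did not overlap the vehicle samples, with log2 fold changes of -0.28 ± 0.09 and -0.63 ± 0.09. At 6 h the Pmvk call was lost without vehicle replicate 3 or TWEAK replicate 2 (-0.32 to -0.21, adjusted p up to 0.153), and the call with the inhibitor without replicate 2 of either group (0.28 to 0.39, adjusted p up to 0.0861).

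Of the rest of this segment, Mvd fell by 0.65 ± 0.05 at 24 h (adjusted p = 5.38e-11) and by 0.20 ± 0.05 at 6 h. Idi1, at under 5 CPM in every sample, and Fdps had log2 fold changes of -0.37 ± 0.14 and -0.15 ± 0.06 at 6 h that did not pass the test, and fell by 0.56 ± 0.14 and 0.37 ± 0.06 at 24 h. With the inhibitor at 24 h Mvd, Idi1 and Fdps were higher than with TWEAK by 0.53 ± 0.05, 0.42 ± 0.14 and 0.24 ± 0.06. The Idi1 value was lost as a call without TWEAK replicate 2 or 3 or without replicate 2 or 3 of the inhibitor group (0.31 to 0.55, adjusted p up to 0.194), and the Fdps value without TWEAK replicate 3 (0.18 to 0.32, adjusted p up to 0.0627).

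Fdft1 commits the pathway to sterol by joining farnesyl units into squalene, Sqle oxidizes squalene, and Lss closes the rings to lanosterol. All 3 fell with TWEAK at 24 h and rose when NIK SMI1 was added at either time. Lss (chr10:76531565-76557139) had 82.5, 81.0 and 80.6 CPM with vehicle at 6 h, 63.8, 65.9 and 65.2 with TWEAK and 83.9, 84.7 and 83.3 with the inhibitor. At 24 h its values were 113, 118 and 121 with vehicle, 65.2, 68.4 and 70.5 with TWEAK and 102, 104 and 104 with the inhibitor. With vehicle the level rose with time by 0.46 ± 0.04, while the TWEAK samples stayed between 63.8 and 70.5 CPM at both times. TWEAK gave a log2 fold change of -0.31 ± 0.04 at 6 h and of -0.78 ± 0.04 at 24 h (adjusted p = 1.42e-15).

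Sqle fell by 0.26 ± 0.03 at 6 h and 0.38 ± 0.03 at 24 h, and Fdft1 by 0.27 ± 0.04 at 24 h, with -0.10 ± 0.04 at 6 h where it did not pass (95% interval -0.19 to -0.02). With NIK SMI1 added, Sqle rose by 0.24 ± 0.03 and 0.31 ± 0.03 and Fdft1 by 0.15 ± 0.04 and 0.24 ± 0.04 at 6 h and 24 h. The Fdft1 call at 6 h was lost without any 1 of 4 samples, TWEAK replicates 1 and 2 and inhibitor replicates 2 and 3 (0.11 to 0.18, adjusted p up to 0.141). Exons of Fdft1 share 774 bases with Ctsb on the other strand, and the library kit does not mark strand, so reads there cannot be assigned to either gene. Other annotated genes also share exonic bases with Hmgcs1 (557 bases), Lss (381), Idi1 (323), Scap (985), Fdps (1124) and Acss2 (395 with Gss).

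The 8 enzymes that turn lanosterol into cholesterol all fell with TWEAK at 24 h, and 5 of them (Cyp51, Msmo1, Nsdhl, Hsd17b7 and Dhcr7) fell at 6 h. Cyp51, Msmo1, Nsdhl and Hsd17b7 strip methyl groups from the ring system, Tm7sf2, Ebp and Sc5d set its double bonds, and Dhcr7 catalyses the last step of one branch. With the inhibitor, 7 of the 8 were higher than with TWEAK at 24 h and 5 at 6 h. Ebp was the exception at 24 h, at 0.15 ± 0.06 with a 95% interval of 0.03 to 0.27, and it passed with no filter on low counts (adjusted p = 0.0351) and in the fit of the 24 h samples alone (adjusted p = 0.0164).

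Hsd17b7 (chr1:169949535-169969242) had 106, 101 and 102 CPM with vehicle, 71.5, 76.1 and 72.0 with TWEAK and 93.3, 86.0 and 94.3 with the inhibitor at 6 h. Its 24 h values were 109.6, 113 and 109 with vehicle, 66.3, 60.9 and 64.7 with TWEAK and 87.6, 93.9 and 95.7 with the inhibitor. The 3 groups stood apart at both times, with the inhibitor samples in between, and the vehicle level did not pass the test between times (0.04 ± 0.04, 95% interval -0.05 to 0.13). TWEAK lowered Hsd17b7 by 0.48 ± 0.04 at 6 h and 0.79 ± 0.05 at 24 h.

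Dhcr7 (chr7:143823167-143848410) was 20.0, 18.6 and 19.1 CPM with vehicle, 13.4, 13.8 and 13.3 with TWEAK and 18, 17.4 and 17.4 with the inhibitor at 6 h. The 24 h samples gave 29.5, 31.6 and 31.4 with vehicle, 19.8, 21.1 and 18.7 with TWEAK and 28.7, 24.6 and 26.2 with the inhibitor. No sample of 1 group overlapped another at either time, and the fall with TWEAK was -0.50 ± 0.06 and -0.63 ± 0.06. The remaining 6 enzymes fell by 0.18 to 0.60 on the log2 scale at 24 h, with Sc5d the least (-0.18 ± 0.05) and Cyp51 the most (-0.60 ± 0.04, adjusted p = 1.6e-13). Exons of Cyp51 share 166 bases with Akap9 on the other strand and those of Tm7sf2 share 532 with Vps51 on the same strand.

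Stard4, which carries cholesterol between membranes, changed more than most of the enzymes. It was 43.7, 41.4 and 45.2 CPM with vehicle, 33.3, 30.4 and 29.0 with TWEAK and 39.0, 40.0 and 39.5 with the inhibitor at 6 h. By 24 h the values were 68.1, 65.1 and 67.4 with vehicle, 36.0, 33.1 and 37.9 with TWEAK and 56.6, 58.6 and 59.3 with the inhibitor. The 3 groups did not overlap at either time, and TWEAK samples at 24 h lay just below the inhibitor samples at 6 h. Its log2 fold changes under TWEAK were -0.48 ± 0.05 at 6 h and -0.91 ± 0.05 at 24 h (adjusted p = 6.98e-14), and the rise with the inhibitor was 0.35 ± 0.05 and 0.70 ± 0.05.

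Among the 5 genes of fatty acid synthesis, all fell with TWEAK at 24 h, and Acaca, Fasn, Elovl6 and Scd2 fell at 6 h. Acaca makes malonyl-CoA, Fasn assembles palmitate, Elovl6 lengthens it, and Scd1 and Scd2 put in the first double bond. All 5 were higher with the inhibitor than with TWEAK alone at 24 h, and 4 at 6 h. The desaturases differed in level, since Scd2 was at 115 RPKM ± 4.37 and Scd1 at 0.956 ± 0.125 per length with vehicle at 6 h.

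Scd1 (chr19:44394450-44407709) had 5.48, 4.38 and 4.54 CPM with vehicle, 3.68, 3.82 and 3.94 with TWEAK and 4.09, 4.55 and 5.32 with the inhibitor at 6 h, and 8.89, 10.1 and 8.54 with vehicle, 4.23, 3.36 and 3.78 with TWEAK and 7.36, 7.34 and 7.77 with the inhibitor at 24 h. It showed the largest change of the 31 genes with TWEAK at 24 h, -1.29 ± 0.12 (adjusted p = 5.53e-10), and the largest with the inhibitor, 1.0 ± 0.11. At 6 h its value of -0.31 ± 0.12 did not pass the test (adjusted p = 0.0557). Scd2 (chr19:44293676-44306864) had 674, 631 and 657 CPM with vehicle, 457, 463 and 463 with TWEAK and 604, 590.3 and 586 with the inhibitor at 6 h. Its 24 h values were 1126, 1138 and 1137 with vehicle, 736, 692 and 731 with TWEAK and 1077, 1065 and 1075 with the inhibitor. Replicates of Scd2 lay close together, no groups of a time point overlapped, and TWEAK gave -0.49 ± 0.03 at 6 h and -0.66 ± 0.03 at 24 h (adjusted p = 1.8e-15). The 2 genes are similar in sequence, and the counting kept only reads with a single place in the genome.

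Elovl6 (chr3:129532386-129638495) was 28.0, 27.4 and 27.0 CPM with vehicle, 17.4, 19.9 and 18.2 with TWEAK and 25.5, 21.4 and 24.1 with the inhibitor at 6 h, and then 44.9, 42.8 and 44.7 with vehicle, 22.6, 24.0 and 24.2 with TWEAK and 34.4, 33.5 and 35.9 with the inhibitor at 24 h. The inhibitor samples lay between the other groups with no overlap. Its fall with TWEAK was the largest of the 31 at 6 h (-0.55 ± 0.06, adjusted p = 3.22e-08) and reached -0.90 ± 0.06 at 24 h. Fasn was 583, 503 and 529 CPM with vehicle, 448, 488 and 507 with TWEAK and 566, 567 and 533 with the inhibitor at 6 h. At 24 h Fasn gave 670.0, 736 and 655 with vehicle, 562, 506 and 527 with TWEAK and 606, 618 and 589.8 with the inhibitor. The 6 h vehicle and TWEAK samples of Fasn overlapped, and its call there (-0.15 ± 0.05, adjusted p = 0.0451) was lost without vehicle replicate 1, TWEAK replicate 1 or TWEAK replicate 2 (-0.20 to -0.08, adjusted p up to 0.314).

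At 24 h Fasn fell by 0.37 ± 0.05 and Acaca by 0.34 ± 0.06. The calls of Fasn and Acaca with the inhibitor were less steady. Fasn was 0.20 ± 0.05 at 6 h, lost without TWEAK replicate 1 or inhibitor replicate 1 or 2 (0.15 to 0.25, adjusted p up to 0.143), and 0.18 ± 0.05 at 24 h, lost without TWEAK replicate 2 or 3 or inhibitor replicate 2 (0.14 to 0.22, adjusted p up to 0.124). Acaca was 0.23 ± 0.06 at 6 h, lost without inhibitor replicate 1 (0.21 to 0.24, adjusted p up to 0.0553), and 0.21 ± 0.05 at 24 h, lost without TWEAK replicate 2 or inhibitor replicate 1 (0.17 to 0.25, adjusted p up to 0.0688). Its fall with TWEAK at 6 h (-0.19 ± 0.06) was lost without vehicle replicate 1 (-0.23 to -0.13, adjusted p up to 0.11).

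The 5 genes that control the SREBP switch had median changes of -0.03 at 6 h and -0.15 at 24 h under TWEAK, on the log2 scale, which lie nearer to 0 than the medians of all 31. Srebf1 and Srebf2 encode the transcription factors themselves. Srebf1 was 118, 119 and 125 CPM with vehicle, 116, 122 and 122 with TWEAK and 126, 132 and 129.7 with the inhibitor at 6 h, and 142, 159 and 147 with vehicle, 138, 130.1 and 122 with TWEAK and 137, 138 and 128 with the inhibitor at 24 h. Srebf2 was 409, 400.3 and 412 CPM with vehicle, 381, 402 and 403 with TWEAK and 421, 435 and 415 with the inhibitor at 6 h, and 478, 504 and 490.1 with vehicle, 457, 436 and 433 with TWEAK and 481, 471 and 461 with the inhibitor at 24 h. Vehicle and TWEAK samples of both genes overlapped at 6 h and did not at 24 h. Both fell at 24 h, Srebf1 by 0.20 ± 0.05 and Srebf2 by 0.15 ± 0.03, and at 6 h the 95% intervals were -0.09 to 0.09 and -0.10 to 0.04. With NIK SMI1 neither passed the test at either time, with 24 h values of 0.05 ± 0.05 and 0.09 ± 0.03. Srebf2 did pass at 24 h in the fit of the 24 h samples alone (0.08, adjusted p = 0.0497) and without TWEAK replicate 1 (0.11, adjusted p = 0.0333), and at 6 h without inhibitor replicate 3 (0.11, adjusted p = 0.042). Exons of Srebf1 share 109 bases with Rai1 on the other strand.

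Insig1, itself a target of SREBP, and Insig2, whose transcription does not depend on SREBP, make a pair with the same role. Insig1 (chr5:28071412-28078662) was 57.0, 53.6 and 54.4 CPM with vehicle, 44.1, 44.3 and 45.5 with TWEAK and 52.9, 52.3 and 54.8 with the inhibitor at 6 h, and 75.1, 78.4 and 77.7 with vehicle, 53.4, 56.4 and 57.6 with TWEAK and 69.6, 74.1 and 72.4 with the inhibitor at 24 h. Insig2 (chr1:121304353-121332662) was 63.0, 60.8 and 62.2 CPM with vehicle, 62.0, 61.7 and 63.0 with TWEAK and 60.7, 59.6 and 62.9 with the inhibitor at 6 h, and 66.0, 67.3 and 63.6 with vehicle, 63.0, 61.0 and 63.9 with TWEAK and 63.8, 59.9 and 64.3 with the inhibitor at 24 h. TWEAK samples of Insig1 lay below all others of their time point, whereas the Insig2 samples of the 6 groups lay between 59.6 and 67.3 CPM. Insig1 fell by 0.29 ± 0.04 and 0.46 ± 0.04. For Insig2 the 95% intervals with TWEAK were -0.06 to 0.10 at 6 h and -0.15 to 0.01 at 24 h. Scap fell by 0.14 ± 0.04 at 6 h and 0.11 ± 0.04 at 24 h, a call lost without TWEAK replicate 1 at 6 h (-0.16 to -0.12, adjusted p up to 0.0529), and without vehicle replicate 2 or 3 or TWEAK replicate 2 at 24 h (-0.15 to -0.08, adjusted p up to 0.169). Its rise with the inhibitor, 0.17 ± 0.04 and 0.12 ± 0.04, was lost without inhibitor replicate 2 at 6 h (0.13 to 0.19, adjusted p up to 0.0699), and without TWEAK replicate 2 or any inhibitor sample at 24 h (0.09 to 0.14, adjusted p up to 0.195).

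**Figure D3:**
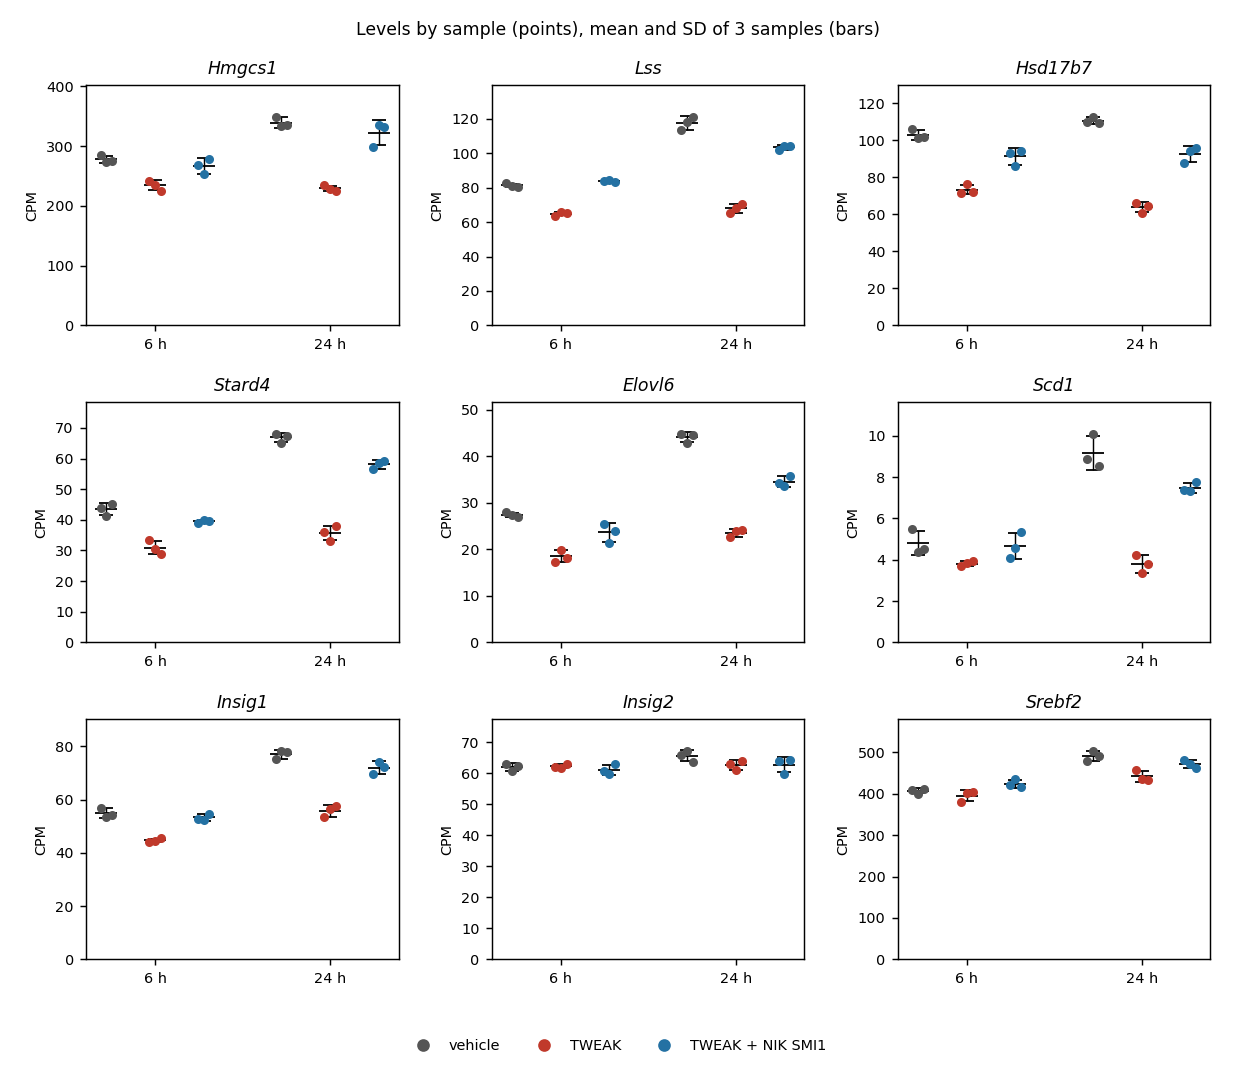
Level in CPM (y axes, from 0) of 9 of the genes in every sample, by time (x axes) and agent (colours); points are samples and bars are the mean and SD of 3. In 7 of the panels the red TWEAK samples at 24 h lie well below the grey vehicle samples, in Srebf2 by a small step (433 to 457 against 478 to 504 CPM), and in Insig2 the groups overlap.

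The effect of TWEAK grew between 6 h and 24 h for 14 of the 31 genes, where an interaction term passed the test in the negative direction, and for 0 in the positive one (all genes: 5.67% and 3.24%, and 0 positive also at an unadjusted p below 0.05 and with DESeq2). Scd1 changed most, by -0.98 ± 0.16 (adjusted p = 0.000158), followed by Lss (-0.47 ± 0.05), Mvd (-0.46 ± 0.07), Stard4 (-0.43 ± 0.07) and Acat2 (-0.42 ± 0.08). The effect of NIK SMI1 was larger at 24 h for 10 genes and smaller for 0 (all genes: 3.11% and 1.62%, and 0 smaller also at an unadjusted p below 0.05 and with DESeq2), again with Scd1 first (0.74 ± 0.17). Of the genes with the largest falls at 6 h, Dhcr7 did not pass this test (-0.13 ± 0.09, 95% interval -0.31 to 0.05). The 19 genes that fell at 6 h were all among the 30 that fell at 24 h, an overlap that is nearly fixed when 30 of 31 fell. When 1 sample was left out, the change of the TWEAK effect lost its call for Srebf1 in 8 of 12 fits (-0.25 to -0.16, adjusted p up to 0.145), for Scd2 without vehicle replicate 2 at 6 h or TWEAK replicate 2 at 24 h (-0.20 to -0.13, adjusted p up to 0.0765) and for Tm7sf2 without TWEAK replicate 3 at 6 h (-0.33 to -0.26, adjusted p up to 0.0532). The change of the inhibitor effect lost its call for Hsd17b7 in 9 of 12 fits (0.18 to 0.26, adjusted p up to 0.164), for Tm7sf2 in 8 of 12 (0.20 to 0.33, adjusted p up to 0.0964) and for Acat2 without replicate 3 of either 24 h group (0.28 to 0.37, adjusted p up to 0.0632).

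**Figure D4:**
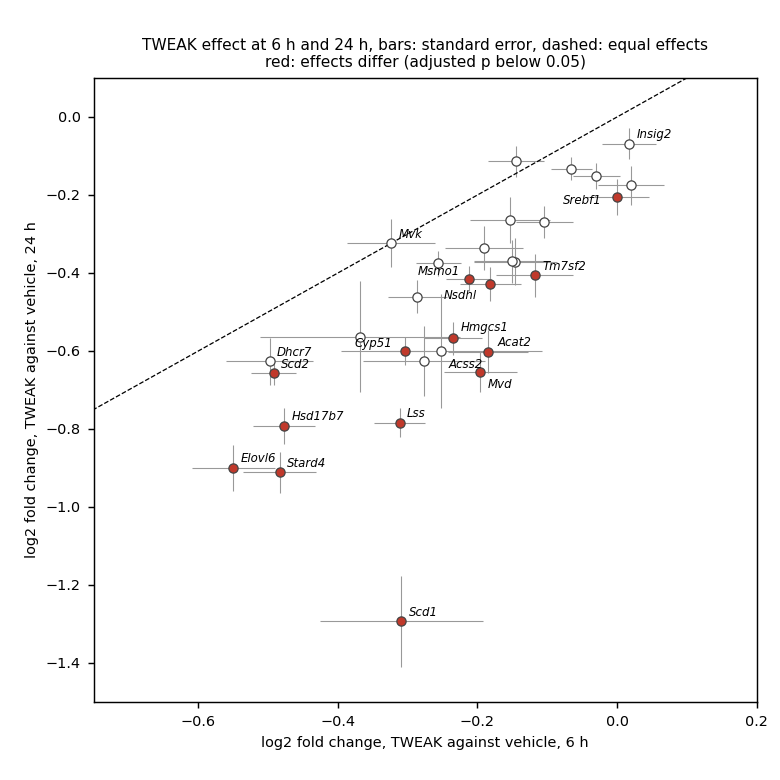
Log2 fold change with TWEAK at 6 h (x axis) and at 24 h (y axis) for each of the 31 genes; bars are standard errors, the dashed line marks equal effects and red points are the 14 genes whose effects differed. Scd1 lies far below the line at -1.29 against -0.31, and Mvk lies on it at -0.32 for both times.

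Compared with vehicle, cells with TWEAK and NIK SMI1 together showed lower values of most of the genes at 24 h, and of about as many as not at 6 h. At 6 h, 3 of the 31 genes were lower than with vehicle and 0 higher (all genes: 6.70% and 7.24%), the 3 being Elovl6 (-0.20 ± 0.06), Hsd17b7 (-0.17 ± 0.04) and Scd2 (-0.13 ± 0.03), and the median log2 difference was 0.011, with 15 genes below 0 and 16 above. All inhibitor samples lay below all vehicle samples in 6 genes (13.8% of all genes) and above them in 4 (12.2%). At an unadjusted p below 0.05, 5 genes were lower and 2 (Mvd and Srebf1) higher, and with DESeq2 0 were higher. Only Scd2 kept its call at 6 h when vehicle replicate 1 or inhibitor replicate 2 was left out, with Elovl6 at -0.27 to -0.14, adjusted p up to 0.214 and Hsd17b7 at -0.19 to -0.13, adjusted p up to 0.101 over the fits without 1 sample. At 24 h, 8 were lower and 0 higher (all genes: 9.83% and 8.07%, and 0 higher at an unadjusted p below 0.05 and with DESeq2), with a median of -0.11 and 30 of the 31 below 0. At an unadjusted p below 0.05, 17 were lower. No share of all genes at this unadjusted threshold is given for either time, so these counts have no background. All inhibitor samples lay below all vehicle samples in 19 genes (16.2% of all genes) and above them in 0 (17.7%). The 8 were Elovl6 (-0.36 ± 0.06), Hsd17b7 (-0.26 ± 0.04), Dhcr7 (-0.22 ± 0.06), Stard4 (-0.21 ± 0.05), Lss, Fasn, Srebf1 and Cyp51, a share of the 31 above the background at 24 h and near it at 6 h. Fits without 1 sample lost Cyp51 (-0.14 to -0.08, adjusted p up to 0.164, without vehicle or inhibitor replicate 1), Dhcr7 (-0.28 to -0.17, adjusted p up to 0.0815, without inhibitor replicate 2), and Fasn and Srebf1 (-0.22 to -0.14, adjusted p up to 0.13 and -0.19 to -0.11, adjusted p up to 0.134, each without vehicle replicate 2 or inhibitor replicate 3).

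**Figure D5:**
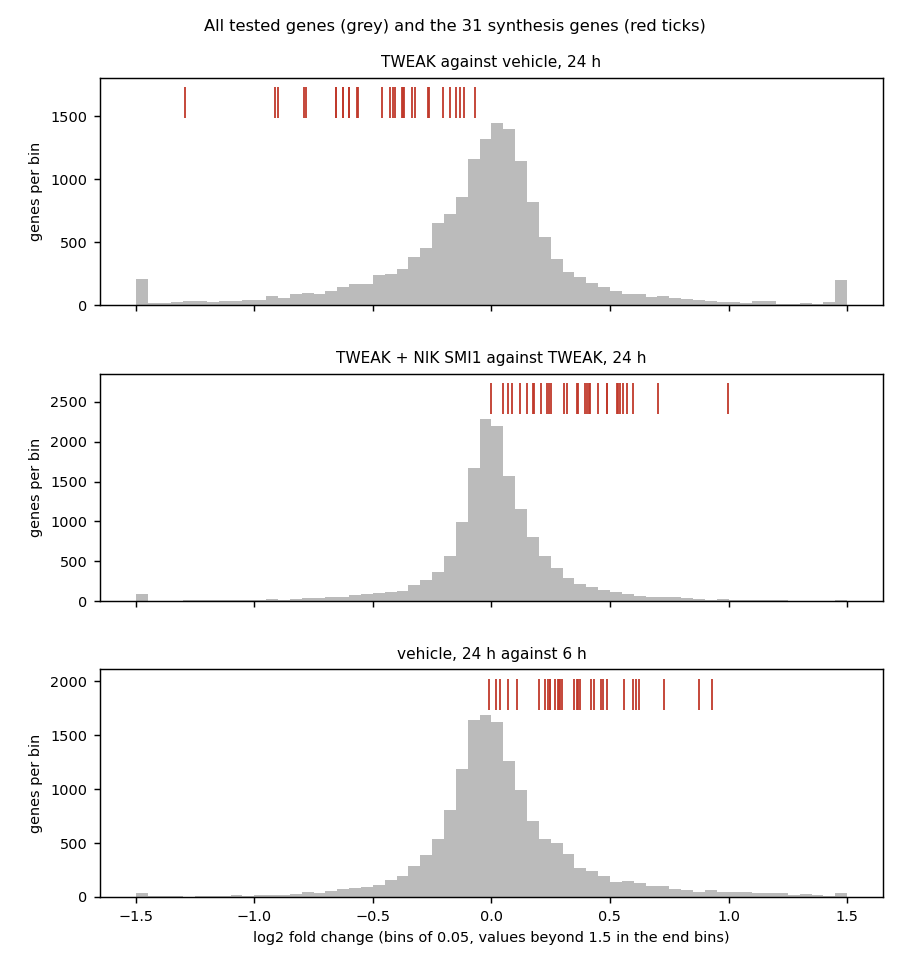
Distribution of log2 fold changes (x axes) of all tested genes (grey bars, genes per bin of 0.05 on the y axes), with each of the 31 genes as a red tick. The 3 comparisons are TWEAK against vehicle at 24 h, TWEAK with NIK SMI1 against TWEAK at 24 h, and vehicle at 24 h against vehicle at 6 h. Most ticks lie left of the grey peak with TWEAK (median -0.43) and right of it with NIK SMI1 added (0.36) and with time in vehicle (0.35).

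Read counts of pancreatic islet genes moved with the 24 h groups. The summed level of the 8 islet markers was 14.3 to 29.0 CPM in all samples at 6 h and with vehicle at 24 h, 13.2, 0.214 and 4.18 CPM in TWEAK replicates 1, 2 and 3 at 24 h, and 0.0451 to 0.0870 CPM with TWEAK and NIK SMI1 at 24 h. Ins1, Ins2, Iapp and Chga carried this sum, with Ppy and Pyy at 0 in every sample. With TWEAK replicate 1 as the only TWEAK sample at 24 h, whose islet level was nearest to vehicle, 22 of the 30 genes kept their fall, and Acly, Acss2, Fdps, Idi1, Sc5d, Scap, Srebf1 and Srebf2 did not. With replicate 2 alone, whose level was nearest to the inhibitor group, 29 of 30 did, and 23 of 25 kept their rise with NIK SMI1. Podxl, a podocyte gene that epithelial cells also express, was also lowest with TWEAK at both times, at 385 to 389.6 CPM with vehicle and 335 to 342 with TWEAK at 6 h, and 328 to 339 and 241 to 249.8 at 24 h, while Nphs1, which defines podocytes, was at or near 0. The summed level of the 9 epithelial markers was 10340 to 10810 CPM with vehicle, 9588 to 9945 with TWEAK and 10150 to 10760 with the inhibitor at 6 h, and 9267 to 9424, 8181 to 8291 and 9025 to 9036 at 24 h. At 24 h, 7 of the 9 were lower in all TWEAK samples than in all vehicle samples and 2 were higher (all genes: 25.6% and 24.0%). Krt19, a keratin, was 1452 to 1518 CPM with vehicle, 785 to 829 with TWEAK and 1117 to 1123 with the inhibitor, and Epcam, an adhesion protein, 641 to 653, 1205 to 1232 and 866 to 898. What part these reads or genes have in the results was not tested.

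Most of the other SREBP targets also fell with TWEAK. Of 19 tested SREBP targets outside the 31, 11 fell and 1 rose with TWEAK at 6 h, and 13 fell and 1 rose at 24 h, with median log2 fold changes of -0.15 and -0.32 (all genes: -0.0034 and -0.0055). Over all genes, 12.0% fell and 11.7% rose at 6 h, and 20.7% fell and 18.3% rose at 24 h. Acsl3, which activates fatty acids, fell by 0.71 ± 0.05 at 6 h and 0.78 ± 0.05 at 24 h. The 1 that rose was Lpin1, a phosphatidate phosphatase, by 0.41 ± 0.07 and 0.43 ± 0.07. With NIK SMI1 added, 10 of the 19 were higher at 6 h and 11 at 24 h, against 5.34% and 10.2% of all genes, with 0 lower at either time by edgeR, at an unadjusted p below 0.05 included.

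Of 11 tested genes of sterol export and LXR regulation, 3 rose and 2 fell at 6 h and 3 rose and 3 fell at 24 h (medians 0.10 and 0.11), counts that lie near the shares of all genes just given at 24 h and for the falls at 6 h. Npc1 and Npc2, which move cholesterol out of lysosomes, rose by 0.42 ± 0.04 and 0.23 ± 0.03 at 24 h, and the export pumps moved in opposite directions at under 1.3 CPM, Abcg1 by 1.16 ± 0.36 and Abca1 by -1.26 ± 0.32. Lpcat3 and Lipa fell by 0.20 ± 0.04 and 0.17 ± 0.06. Of 12 genes of fatty acid oxidation, 3 fell and 0 rose at 6 h by edgeR and 5 fell and 2 rose at 24 h (medians -0.11 and -0.145), where the same shares of all genes apply. By an unadjusted p below 0.05, 6 fell and 0 rose at 6 h, and no share of all genes at that threshold is given. Acaa2, the mitochondrial thiolase, fell by 0.42 ± 0.06 and Cpt1a, which admits fatty acids to mitochondria, by 0.23 ± 0.04 at 24 h, while Slc25a20, which carries acylcarnitine into mitochondria, rose by 0.28 ± 0.06 and Acadl, a dehydrogenase of long chains, by 0.12 ± 0.04. Thrsp, Nr1h3, Smpdl3a and Ch25h were listed too but did not pass the filter on low counts.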

How the data were processed

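RNA was taken from 18 RPTEC samples in 6 groups of 3, and libraries were made with a TruSeq RNA v2 kit, which does not mark strand. The authors aligned reads to NCBI build 37 of the mouse genome with GSNAP through HTSeqGenie and deposited whole-number counts of uniquely aligned exonic reads per Entrez gene, beside RPKM values (reads scaled to exonic length and library size). Versions of these tools are not given in the sources used here, and the submitters' processing notes also name DESeq2. The labels and the study's methods differ on sequencer, read length and RNA input. Every column was mapped to a sample, with 0 left over, and replicate numbers here only name samples.

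Symbols and positions were read from RefSeq tables (GRCm38.p6) by Entrez identifier, with 31049 of 36528 identifiers matched. No coordinate was converted between builds. Shared exonic bases come from the GENCODE annotation of GRCm38. Counts were tested with edgeR 4.0.16 (R 4.3.3) by the quasi-likelihood test on 15521 genes with more than 10 reads in at least 4 samples, with TMM scaling (factors 0.964 to 1.03), 1 fit over all 18 samples (common biological coefficient of variation 0.0404), and Benjamini-Hochberg adjustment over all tested genes. CPM are counts scaled to 1000000 counted reads. Errors of log2 fold changes are standard errors, and intervals are at 95%. Genes were called at an adjusted p below 0.05. With 3 samples against 3, an exact permutation test of a single value cannot go below 0.1, so none is given. On data simulated for TWEAK against vehicle at 24 h over 15344 genes, the fit recovered 98% of 102 genes changed by 0.5 on the log2 scale and 100% of 98 changed by 1, and called 3 unchanged genes. The changed genes were drawn from those above a minimum mean CPM. The simulated spread followed the trend of the fit over level, with no spread particular to a gene. Changes were placed in the TWEAK group at 24 h alone, in far fewer genes than the 20.7% that fell and 18.3% that rose in the data. Recovery and false calls with that many changed genes were not tested. Recovery of changes below 0.5, which include many of those reported here, and of genes at low levels was not tested.

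Values in every sample are given for genes among the 5 largest called changes of a comparison and for the SREBP and INSIG genes, with Hmgcs1 added for its promoter. The members, gene lists and tests were chosen with earlier results of these data known. Alternatives were DESeq2 1.42.0, DESeq2 size factors in edgeR, other filters on low counts, a minimum of 1.5-fold, a fit per time point, and leaving out each sample. Reads are counted without molecular identifiers, so counting error is the lower limit of the error. Some genes of the lists are not reported here.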

Additional observations from a re-analysis of the deposited data

Results flagged for a closer look

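For 14 of the 31 genes the log2 fold change with TWEAK differed between 6 h and 24 h by the test of the interaction itself, in the same fit, at an adjusted p below 0.05. The difference, 24 h less 6 h, was -0.98 for Scd1, -0.35 for Elovl6 and -0.16 for Scd2 among the genes of fatty acid synthesis. For the early sterol enzymes it was -0.42 for Acat2, -0.33 for Hmgcs1, -0.46 for Mvd and -0.47 for Lss. For the later ones it was -0.30 for Cyp51, -0.29 for Tm7sf2, -0.20 for Msmo1, -0.25 for Nsdhl and -0.31 for Hsd17b7. The carrier Stard4 gave -0.43 and Srebf1 gave -0.21. The vehicle samples of the 2 times also differed for most of these genes, and these samples enter the difference.

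For 10 genes the difference between TWEAK with NIK SMI1 and TWEAK alone changed with time by the same test. The change was 0.74 for Scd1, 0.35 for Stard4, 0.32 for Acat2, 0.31 for Hmgcs1, 0.27 for Tm7sf2, 0.27 for Cyp51, 0.23 for Lss, 0.22 for Hsd17b7, 0.21 for Scd2 and 0.20 for Msmo1. Both sets of differences share the TWEAK samples.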

How the results depend on the processing

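No called log2 fold change of the 31 genes turned its direction under any alternative run. Counts of genes called stayed within 1.5 times those of the report with DESeq2, its size factors, no filter, edgeR's own filter and a fit per time point, for instance 18 to 20 lower with TWEAK at 6 h and 24 to 27 higher with NIK SMI1 at 24 h. Ebp passed the test with TWEAK at 6 h by DESeq2 (adjusted p = 0.0469). Requiring more than 1.5-fold moved the counts most. With TWEAK 0 genes were then lower at 6 h and 12 at 24 h, with NIK SMI1 added 0 were higher than with TWEAK at 6 h and 3 at 24 h, and against vehicle 0 were lower at 6 h and 0 at 24 h. Under the same requirement 6 were higher with time in vehicle, 1 gene changed its TWEAK effect and 1 its NIK SMI1 effect. A pair of alternatives added after the data were seen kept 1 TWEAK sample at 24 h, which is then assumed to vary like the other groups. With replicate 1 alone the TWEAK effect changed with time for 8 genes in place of 14, and with replicate 2 alone the NIK SMI1 effect changed for 6 in place of 10. Fewer samples enter these fits, and the comparisons with NIK SMI1 were not run with replicate 1 alone.

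Leaving out 1 sample at a time gave 16 to 20 genes lower with TWEAK at 6 h and 29 to 30 at 24 h, 15 to 21 higher with NIK SMI1 added at 6 h and 21 to 26 at 24 h, and 25 to 27 higher with time in vehicle. Against vehicle, TWEAK with NIK SMI1 gave 1 to 4 lower and 0 to 1 higher at 6 h and 6 to 8 lower at 24 h, and the count of 1 came without vehicle replicate 1 or inhibitor replicate 2. The change of effect with time held for 12 to 17 genes with TWEAK and 7 to 10 with NIK SMI1. No paired analysis was possible because the labels give no replicate numbers that would pair samples across groups. Genes with few reads, such as Idi1, Acss2 and Scd1, have the widest errors.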
